A study of Mus musculus with 6 samples.

Results

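The genes described here are 10 regulators and markers of luminal cell fate and hormone response in the mammary gland: the receptors Esr1, Pgr and Prlr, the transcription factors Foxa1, Gata3, Tfap2b and Elf5, the transcriptional cofactors Greb1 and Cited1, and the surface protein Prom1. They were chosen by name, with earlier results of these data known. For each gene the probe set with exactly 1 gene symbol and the highest mean over the 6 arrays was taken. Of the 10 genes, 9 had such a probe set, each of them only 1, out of 19938 genes measured in this way. Prlr was not paired with a probe set in the annotation used and is not analysed here. RNA came from 6 mammary tumors resected early in tumor development from mice carrying the polyoma middle T oncogene under the mammary tumor virus promoter (MMTV-PyMT), which drives it in mammary epithelium. Both groups carried this transgene. The JamA- group (tumors 5333, 5346 and 5347) lacked JAM-A (JAM-A-/-, JAM-A KO), and the JamA+ group (tumors 5369, 5370 and 5393) had it (JAM-A+/+). Ages are not given in the labels, the tissue label of tumor 5347 does not mention the loss of JAM-A although its title and genotype do, and no source assigns single arrays to litters or mice. The p-values therefore measure only the spread between these tumors.

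Luminal cells of the mammary gland line the ducts and alveoli and fall into hormone-sensing cells, which carry the estrogen, progesterone and prolactin receptors, and alveolar cells, which make milk. FOXA1 opens chromatin for the estrogen receptor, GATA3 maintains luminal identity, and ELF5 directs alveolar differentiation downstream of prolactin. Hormone-sensing cells act on their neighbours through secreted factors, and in the mouse PROM1 and CITED1 are commonly used to recognise them. Polyoma middle T tumors are known to lose estrogen receptor protein as they progress.

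Every tumor had 1 Affymetrix Mouse Gene 1.0 ST array, and the values are RMA expression values on the log2 scale, in which 1 unit is a doubling. F11r, which encodes JAM-A, lay between 5.55 and 6.53 in JamA- and between 10.1 and 10.47 in JamA+ tumors, so each tumor matched its label. The luminal epithelium markers Krt8, Krt18 and Epcam lay between 11.56 and 12.89 in all 6 tumors. Tumor 5333 stood apart in salivary gland markers and tumor 5346 in keratinocyte markers, whose deviations from the 6-tumor mean, averaged over the genes of the list, were 1.45 and 1.47, against -0.52 to 0.07 and -0.39 to -0.17 in the other tumors. Tumor 5369 was the lowest for adipocyte, fibroblast and endothelium markers, at -1.24, -0.65 and -0.60. It was also the lowest for macrophage, luminal epithelium and basal markers, at -0.45, -0.30 and -0.25. For T cell, B cell, skeletal muscle, salivary gland and keratinocyte markers it was not. Its array also had the narrowest interquartile range of all values, 3.27 against 3.41 to 3.74 in the other tumors. In bulk tumors, fewer cells of a type and less RNA per cell cannot be told apart.

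Tfap2b and Prom1 were the genes with the greatest difference among the 9, at 2.74-fold and 2.13-fold higher in JamA- tumors. Esr1 was 1.3-fold higher. These 3 met the criteria used here, a fold change of at least 1.3 between group means and an unadjusted p under 0.05 in limma, a linear model fitted to all 35557 probe sets. None of the 9 met them lower. Of all 19938 genes, 5.33% met the criteria, 4.73% higher and 0.592% lower in JamA- tumors. Over all probe sets, with or without a gene symbol, 1405 met them higher and 1547 lower. Without the fold threshold the same 3 of the 9 had an unadjusted p under 0.05, as had 8.16% of all genes. The groups did not overlap, with every JamA- tumor above every JamA+ tumor, for the same 3 genes, as for 12.4% of all genes, and for none of the 9 did every JamA- tumor lie below, as for 2.55% of all genes. None of the 9 passed the Benjamini-Hochberg adjustment over all probe sets, which 1 probe set (0.00281%) passed, that of F11r. The median log2 difference (JamA- minus JamA+) of the 9 genes was 0.32, where that of all genes was 0.09, and 8 of the 9 differences were above 0, as were 71.8% of all genes. Because the genes were chosen with earlier results of these data known, these counts and medians are descriptions and not a test of the list.

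**Figure D1:**
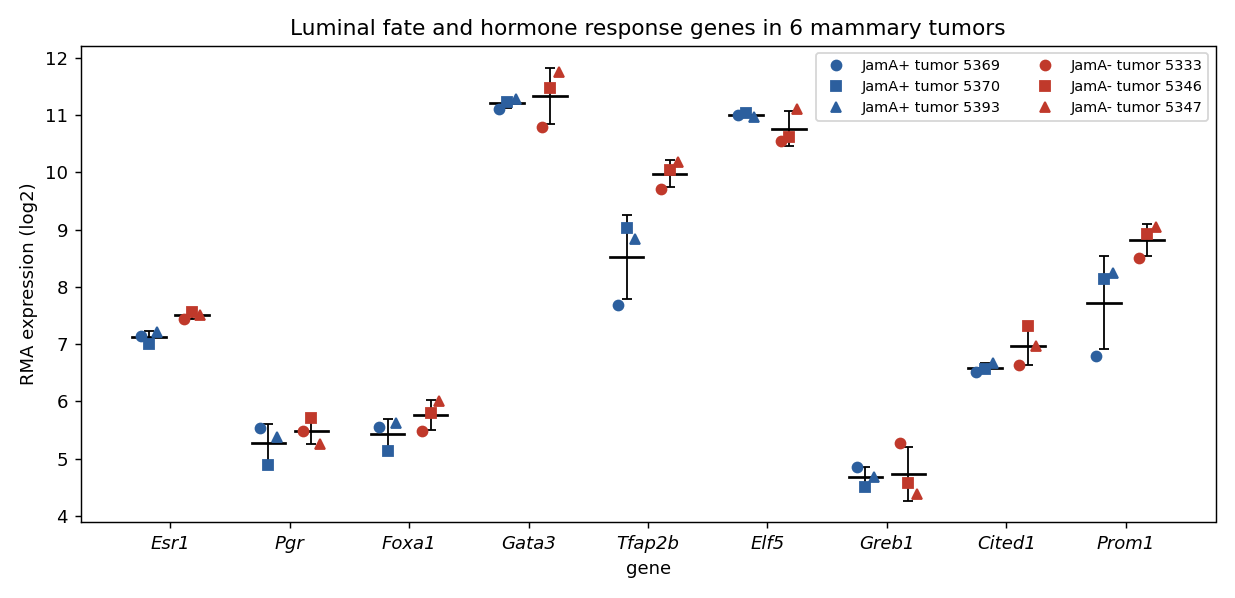
Log2 RMA values (vertical axis) of the 9 measured genes (horizontal axis) in 3 JamA+ tumors (blue) and 3 JamA- tumors (red). Each symbol is 1 tumor, horizontal ticks are group means and bars are 1 SD; only for Esr1, Tfap2b and Prom1 does every JamA- tumor lie above every JamA+ tumor, and levels of different genes are not comparable.

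The regions before the transcription starts of these 3 genes are shown because the genes were the ones that met the criteria together. They are the 250 bases before a RefSeq start of build GRCm38.p6, on the strand of the gene, 5′ to 3′. Capitals mark matches on either strand to motifs of factors encoded by or acting on the described genes. For Tfap2b the only start is shown (chr1:19211804-19212053, plus strand), for Prom1 the 5′-most (chr5:44101737-44101986, minus strand) and the second (chr5:44094769-44095018, minus strand), and for Esr1 the 5′-most of 2 (chr10:4611739-4611988, plus strand).
Tfap2b: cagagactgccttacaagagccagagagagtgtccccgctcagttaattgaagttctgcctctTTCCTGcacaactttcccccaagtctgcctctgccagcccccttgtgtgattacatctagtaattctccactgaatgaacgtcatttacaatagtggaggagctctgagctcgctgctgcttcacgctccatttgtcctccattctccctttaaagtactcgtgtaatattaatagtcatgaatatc
Prom1, first start: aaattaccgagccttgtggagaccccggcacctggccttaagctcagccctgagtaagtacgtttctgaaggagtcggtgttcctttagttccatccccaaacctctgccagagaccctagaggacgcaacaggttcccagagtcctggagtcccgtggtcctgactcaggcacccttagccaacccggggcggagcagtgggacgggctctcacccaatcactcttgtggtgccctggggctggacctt
Prom1, second start: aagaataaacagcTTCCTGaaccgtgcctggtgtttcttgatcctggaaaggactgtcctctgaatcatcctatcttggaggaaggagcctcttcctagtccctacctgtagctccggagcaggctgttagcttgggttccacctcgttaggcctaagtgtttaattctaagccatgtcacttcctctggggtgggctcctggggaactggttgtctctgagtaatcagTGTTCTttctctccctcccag
Esr1: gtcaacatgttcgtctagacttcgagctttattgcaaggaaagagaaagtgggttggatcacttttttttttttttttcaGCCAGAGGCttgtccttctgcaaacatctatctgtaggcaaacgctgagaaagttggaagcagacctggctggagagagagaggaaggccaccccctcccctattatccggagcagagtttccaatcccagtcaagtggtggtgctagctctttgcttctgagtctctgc

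The motifs searched were the full estrogen response element (GGTCA and TGACC with 3 bases between them), AGGTCA for its half-site, AGAACA for a progesterone receptor half-site, TGTTTAC for forkhead factors, AGATAA for GATA factors, GCCNNNGGC for AP-2 factors, CAGGAA for ETS factors such as ELF5, and TTCNNNGAA for STAT5. The AP-2, STAT5 and full estrogen response elements read the same on both strands, and the half-site AGGTCA can lie within the full element. Tfap2b and the second start of Prom1 each held 1 ETS match, 187 and 237 bases before the start, and such a match occurs in 25.7% of the 32851 regions of this length. The second start of Prom1 also held a match to the progesterone receptor half-site, 21 bases before the start (16.1% of all regions), and the first start held none of the 8 motifs. The Esr1 region held 1 AP-2 match, 170 bases before the start (13.7% of all regions). The second start of Esr1, not shown, held no AP-2 match but 1 STAT5 match, 188 bases before the start. Over the 18 starts of the 10 genes, ETS matches were found before 6, AP-2 before 3, forkhead (3.17% of all regions), STAT5 (7.02%) and both half-sites (14% for the estrogen one) before 2 each. GATA matches (9.99%) and the full estrogen response element (0.0639%) were found before none. Among the AP-2 matches, 3 lie before the start of Gata3. These matches are letters in a window and not measured binding.

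Esr1 encodes estrogen receptor alpha, the receptor of ductal growth. It was 7.44, 7.56 and 7.51 in JamA- tumors 5333, 5346 and 5347, and 7.15, 7.01 and 7.21 in JamA+ tumors 5369, 5370 and 5393. The spread within groups was narrow, 0.12 in JamA- and 0.20 in JamA+ tumors from lowest to highest, and the gap between the groups was 0.23. The means were 7.5 ± 0.06 (SD, n = 3) and 7.12 ± 0.10 (SD, n = 3), a log2 difference of 0.38 (standard error 0.11, 95% interval 0.12 to 0.64, adjusted p = 0.354 from limma). The difference lies at the fold threshold, so small shifts move the call. It ended with quantile normalization between all arrays (log2 difference 0.36) and over the probe sets listed in the annotation (0.29), and without tumor 5346, 5347 or 5370 (0.35, 0.38 and 0.32). It also ended at a fold of at least 1.5 and relative to the luminal epithelium markers described below. Over all alternatives the adjusted p from limma or the other tests ran from 0.121 to 0.856. Pgr, the progesterone receptor and itself a target of the estrogen receptor, was 5.49, 5.72 and 5.26 in JamA- and 5.53, 4.90 and 5.38 in JamA+ tumors. The groups overlapped, and the low value of tumor 5370 sets most of the difference of 0.22 (95% interval -0.24 to 0.68, adjusted p = 0.696 from limma), which was 0.03 without that tumor. Pgr, and Foxa1 and Greb1 below, are dim, with means above those of 35.3%, 38.9% and 24.3% of all probe sets. Whether such values stand above background was not tested. Esr2, the other estrogen receptor, differed by 0.08 (95% interval -0.17 to 0.33).

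Foxa1, the pioneer factor, was 5.48, 5.80 and 6.01 in JamA- and 5.55, 5.14 and 5.63 in JamA+ tumors, a difference of 0.32 (95% interval -0.11 to 0.76, adjusted p = 0.55 from limma). Here tumor 5333 lay inside the JamA+ range and tumors 5346 and 5347 above it. Gata3 was 10.78, 11.47 and 11.74 in JamA- and 11.11, 11.23 and 11.28 in JamA+ tumors. The JamA- tumors lay on both sides of the tightly grouped JamA+ tumors, with a range of 0.96 against 0.17. The difference of Gata3 was 0.12 (95% interval -0.42 to 0.67, adjusted p = 0.866 from limma), and it was 0.40 without tumor 5333, where the criteria were met, and -0.08 without tumor 5347. Tumor 5347 was thus the highest and tumor 5333 the lowest or second lowest for both factors. Of their relatives, Foxa3 was higher in every JamA- tumor but below the fold threshold (0.28, adjusted p = 0.445 from limma), Foxa2 differed by -0.06 and Gata2 by -0.11.

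Tfap2b encodes AP-2 beta, a transcription factor found in a subset of luminal cells and related to AP-2 alpha and gamma. It was 9.71, 10.03 and 10.17 in JamA- and 7.68, 9.03 and 8.84 in JamA+ tumors. The lowest JamA- tumor lay 0.68 above the highest JamA+ tumor, and the JamA+ group had the wider spread because of tumor 5369. The means were 9.97 ± 0.24 (SD, n = 3) and 8.52 ± 0.73 (SD, n = 3), a log2 difference of 1.45 (standard error 0.34, 95% interval 0.67 to 2.24, adjusted p = 0.258 from limma). It met the criteria under 17 of the 18 alternatives, at differences of 1.03 (without tumor 5369) to 1.71 (without tumor 5370), and not in a test that gives each group and probe set its own variance. The adjusted p ran from 0.111 to 0.735 over these alternatives. Its relatives in the same family were measured as well. Tfap2a was 8.80 ± 0.31 (SD, n = 3) in JamA- and 8.83 ± 0.06 (SD, n = 3) in JamA+ tumors, a difference of -0.03 (95% interval -0.42 to 0.36), and Tfap2c, which is needed for luminal identity, differed by 0.10 (95% interval -0.55 to 0.74) and met the criteria higher when tumor 5333 was left out. Tfap2b and F11r both lie on chromosome 1 but 152 Mb apart in GRCm38.p6.

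Elf5, the alveolar ETS factor, was the one gene of the 9 with a lower mean in JamA- tumors. It was 10.55, 10.62 and 11.11 in JamA- and 11, 11.04 and 10.96 in JamA+ tumors. Tumors 5333 and 5346 lay below all JamA+ tumors and tumor 5347 above them. The difference was -0.24 (standard error 0.16, 95% interval -0.62 to 0.14, adjusted p = 0.603 from limma) in the deposited values. It met the criteria lower, at -0.43 with quantile normalization between arrays (adjusted p = 0.335 from limma), at -0.44 with that over the listed probe sets (adjusted p = 0.397 from limma) and at -0.42 without tumor 5347 (adjusted p = 0.514 from limma). Over its 18 alternatives the adjusted p of Elf5 ran from 0.265 to 0.863. Ehf and Elf3, related epithelial ETS factors, differed by 0.27 (95% interval -0.16 to 0.69) and 0.04 (95% interval -0.31 to 0.38).

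Greb1, an estrogen-induced cofactor of the estrogen receptor, was 5.27, 4.57 and 4.38 in JamA- and 4.86, 4.5 and 4.69 in JamA+ tumors. Tumor 5333 was the highest and tumor 5347 the lowest of all 6, and the difference was 0.06 (95% interval -0.48 to 0.60, adjusted p = 0.944 from limma), with -0.21 when tumor 5333 was left out. Cited1, a cofactor that enhances estrogen receptor activity, was 6.64, 7.32 and 6.96 in JamA- and 6.52, 6.57 and 6.68 in JamA+ tumors. Its groups overlapped only by tumor 5333, which lay 0.04 below the highest JamA+ tumor. The difference of Cited1 was 0.38 (standard error 0.18, 95% interval -0.03 to 0.80, adjusted p = 0.481 from limma), above the fold threshold with a p of 0.065 from limma. It met the criteria under 4 of 18 alternatives, with array weights (0.56), without tumor 5333 (0.55), after centring each array on its median (0.44) and after quantile normalization between arrays (0.40). Its relatives Cited2 and Cited4 differed by 0.29 (95% interval -0.24 to 0.83) and 0.58 (95% interval -0.13 to 1.28).

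Prom1 encodes prominin-1 (CD133), a membrane glycoprotein of cell protrusions that marks hormone-sensing luminal cells in the mouse. It was 8.50, 8.92 and 9.04 in JamA- and 6.79, 8.14 and 8.25 in JamA+ tumors. The groups did not overlap, but the gap was 0.25, and tumor 5369 lay 1.35 below the next JamA+ tumor. The means were 8.82 ± 0.28 (SD, n = 3) and 7.73 ± 0.81 (SD, n = 3), a log2 difference of 1.09 (standard error 0.37, 95% interval 0.22 to 1.96, adjusted p = 0.395 from limma). Without tumor 5369 the difference was 0.62 and still met the criteria (adjusted p = 0.621 from limma). It no longer met them without tumor 5346 (1.04) or tumor 5347 (0.98), nor in tests that leave out the spread shared across probe sets, and its adjusted p ran from 0.182 to 0.735 over all alternatives. Prom2, the other prominin, moved with it. It was 7.86, 8.39 and 8.69 in JamA- and 7.05, 7.56 and 7.90 in JamA+ tumors, a difference of 0.81 (standard error 0.27, adjusted p = 0.39 from limma), although tumor 5333 and tumor 5393 overlapped. That call ended without tumor 5347, without tumor 5369 and in both tests that do not share the spread across probe sets.

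**Figure D2:**
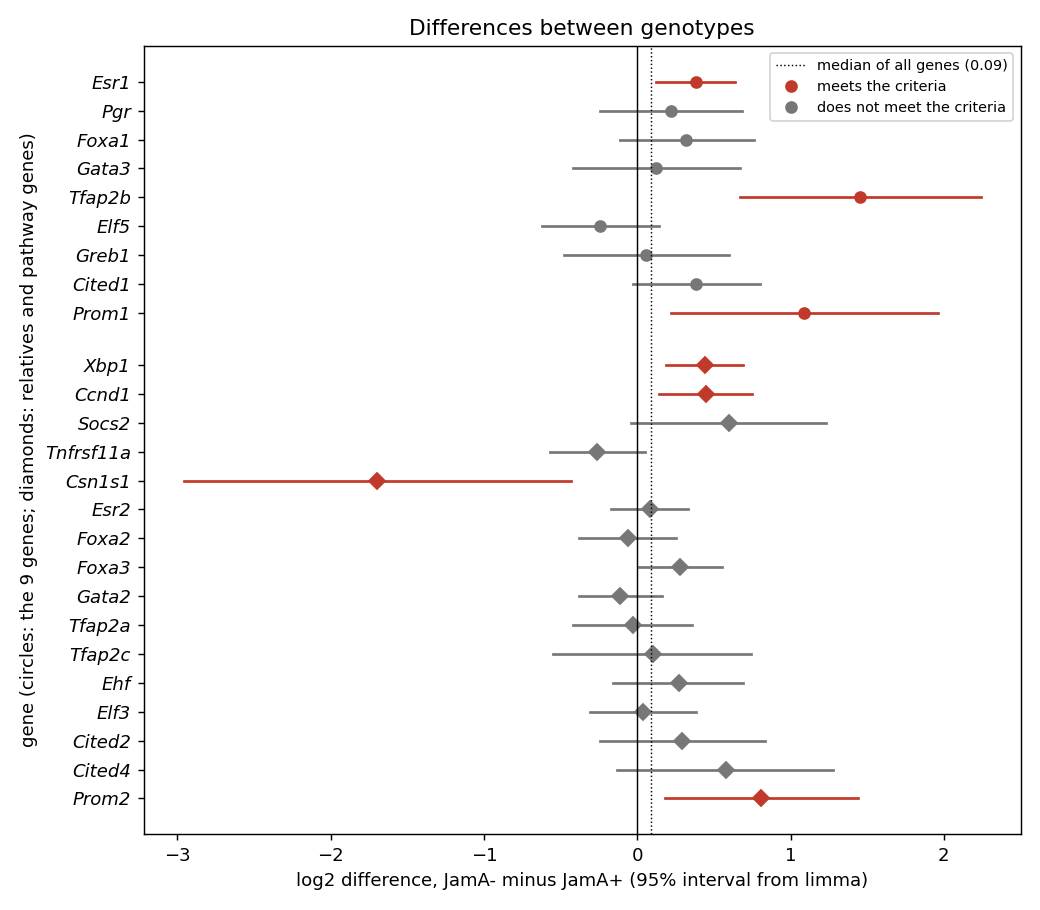
Log2 difference between JamA- and JamA+ means (horizontal axis) with its 95% interval from limma, for the 9 genes (circles) and for pathway genes and relatives (diamonds), listed on the vertical axis. Red marks genes that met the criteria; Tfap2b, Prom1 and Prom2 lie furthest to the right and Csn1s1, at -1.70, furthest to the left, while the intervals of Tfap2a and Tfap2c include 0.

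The order of the tumors was alike for Tfap2b and Prom1. Tumors 5347, 5346 and 5333 had the highest values in this order for both, and tumor 5369 the lowest. By the mean absolute difference of log2 deviations of the 6 tumors from the gene's own mean, Prom1 was the closest of all genes to Tfap2b (0.18), followed by Dusp4, a phosphatase that inactivates ERK (0.25), and Ddit4, an inhibitor of mTOR signalling (0.254). The closest to Prom1 were Abhd2 (0.11), Dusp4 (0.15) and Tfap2b (0.18). For Esr1, whose values span far less, they were 3300002A11Rik (0.03), Pcdh18 (0.0367) and Tmem41b (0.0367). Such a ranking over 6 tumors of 2 genotypes mixes the genotype difference with the spread within groups. Of these genes, Ddit4 was 9.80, 10.08 and 9.99 in JamA- and 8.59, 8.98 and 9.03 in JamA+ tumors, and Abhd2 was 11.08, 11.22 and 11.38 against 9.49, 10.64 and 10.73. Both were lowest in tumor 5369, which a choice by closeness to these profiles favours.

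Tumor 5369 was also the lowest of the 6 for the mean of 9 luminal epithelium markers (Krt7, Krt8, Krt18, Krt19, Epcam, Cdh1, Cldn3, Cldn7 and Muc1), at 10.65, against 10.95 and 11 in the other JamA+ tumors and 10.74, 11.15 and 11.21 in JamA- tumors 5333, 5346 and 5347. None of these 9 markers met the criteria, and their median difference was 0.17. Set against the mean of these markers in each tumor, an alternative chosen after seeing the data, Tfap2b was -1.03, -1.12 and -1.04 in JamA- and -2.97, -1.92 and -2.16 in JamA+ tumors, and Prom1 was -2.24, -2.23 and -2.17 against -3.86, -2.81 and -2.75. The groups stayed apart for both genes and the JamA- tumors lay within 0.09 and 0.07 of one another. The differences were then 1.28 (adjusted p = 0.431 from limma) and 0.92 (adjusted p = 0.611 from limma), while Esr1, at 0.21, no longer met the criteria. On this scale the median of all genes was -0.08.

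The remaining genes of estrogen and progesterone response were followed as a list of 24, of which 21 were measured. Of these, 2 met the criteria higher and none lower, 18 differences were above 0, and the median was 0.17, beside 4.73% higher, 71.8% above 0 and a median of 0.09 over all genes. Xbp1, a transcription factor of secretory cells induced by estrogen, was 12.78, 12.73 and 12.87 in JamA- and 12.35, 12.38 and 12.33 in JamA+ tumors. Ccnd1, which encodes cyclin D1, was 11.18, 11.30 and 11.24 against 10.58, 10.86 and 10.94. The groups did not overlap for either gene, and the differences were 0.44 and 0.45 (adjusted p = 0.277 and 0.347 from limma). Neither met the criteria with quantile normalization between arrays, with that over the listed probe sets, at a fold of at least 1.5, or relative to the luminal markers. Ccnd1 also did not without tumor 5369. Tnfsf11 (RANKL) and Wnt4, paracrine effectors of progesterone named here after their values were seen, differed by 0.17 (95% interval -0.14 to 0.48) and -0.07 (95% interval -0.34 to 0.20).

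Although the prolactin receptor itself is not analysed here, 12 genes listed for its signalling were measured. Among them are receptors of other ligands (Ghr, Erbb4 and Tnfrsf11a), and none of the 12 met the criteria in either direction (median 0.07). Over all genes 4.73% met them higher and 0.592% lower. None of the 12 had an unadjusted p under 0.05 in limma, as had 8.16% of all genes. The smallest p belonged to Socs2, a feedback inhibitor of STAT5 signalling, at 9.96, 10.40 and 11.07 in JamA- and 10.15, 9.80 and 9.69 in JamA+ tumors (0.60, 95% interval -0.04 to 1.23), and to Tnfrsf11a (RANK), at 8.73, 8.64 and 8.75 against 8.84, 9.19 and 8.87 (-0.26, 95% interval -0.57 to 0.05). Stat5a and Stat5b differed by 0.38 (95% interval -0.17 to 0.92) and 0.33 (95% interval -0.15 to 0.81). Without tumor 5333, Stat5a, Stat5b and Socs2 met the criteria higher, as did 10.1% of all genes in that setting. After quantile normalization between arrays Tnfrsf11a met them lower, as did 0.873% of all genes. In the alveolar list, 1 of 13 measured genes met them, the casein gene Csn1s1, lower in JamA- tumors (median of the list 0.07). It was 8.15, 8.90 and 7.78 in JamA- and 9.15, 11.28 and 9.49 in JamA+ tumors, so the groups did not overlap, with tumor 5370 far above the others (difference -1.70, adjusted p = 0.378 from limma). The call ended without tumor 5347 and in both tests that do not share the spread across probe sets. Of 21 other luminal regulators, among them the relatives given above other than Ehf and Elf3, which belong to the alveolar list, Prom2 was the 1 that met the criteria (median 0.08). Over all genes 5.33% met them in either direction and the median was 0.09.

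**Figure D3:**
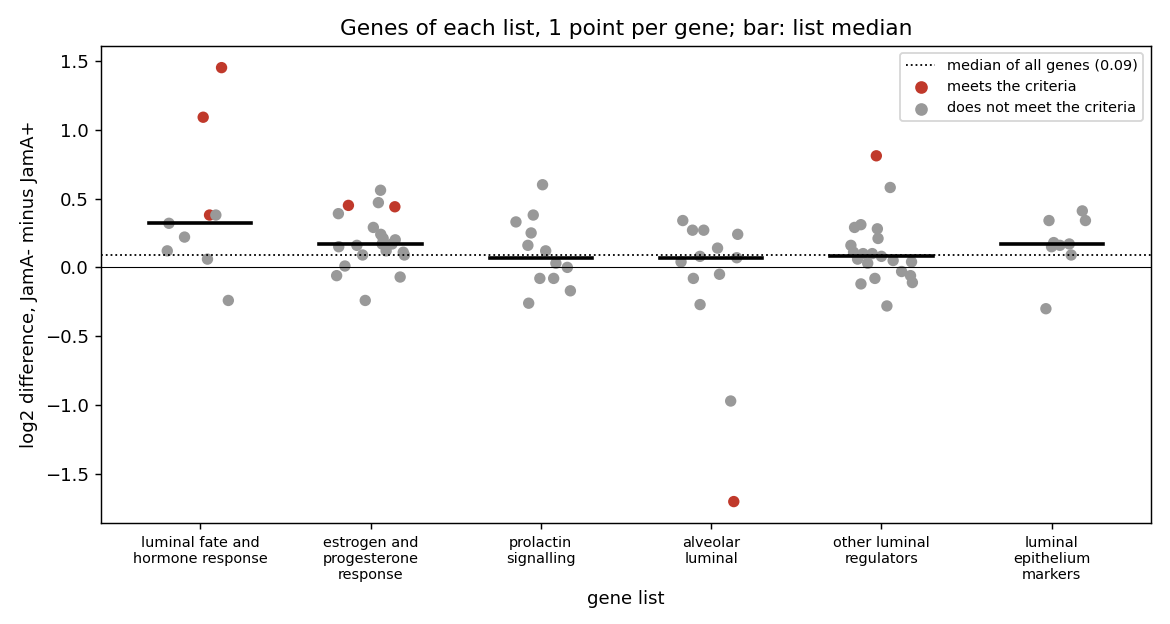
Log2 difference, JamA- minus JamA+ (vertical axis), of each measured gene in 6 gene lists (horizontal axis), with 1 point per gene and a bar at each list's median. The dotted line is the median of all genes at 0.09; red points met the criteria, namely Tfap2b, Prom1 and Esr1 in the first list, Xbp1 and Ccnd1 in the second, Csn1s1 in the alveolar list and Prom2 among the other regulators.

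Markers of other cells moved as follows beside these genes, where 4.73% of all genes met the criteria higher and 0.592% lower. Of 10 basal and myoepithelial markers, Acta2, Cnn1 and Tagln met the criteria higher and Krt5, Krt14 and Trp63 differed by 0.08, 0.01 and 0.03, and the mean level of the list was 7.63 to 7.93 in JamA- and 7.40 to 7.61 in JamA+ tumors. Of 6 fibroblast markers, Col1a2 and Pdgfra met them higher (mean level 10.32 to 10.86 against 9.75 to 10.58), and of 5 endothelium markers Pecam1 did (7.14 to 7.60 against 6.63 to 7.35). No fibroblast or endothelium marker met the criteria without tumor 5346, 5347 or 5369, and Pecam1 also did not without tumor 5393. Without tumor 5369, Cnn1 and Tagln did not meet them either, and Acta2 did. None of 6 adipocyte, 6 macrophage, 4 T cell, 3 B cell or 5 keratinocyte markers met the criteria, nor did the 1 measured red blood cell marker. Of 6 skeletal muscle markers, Acta1 met them higher (mean level 7.23 to 8.23 against 6.35 to 7.86), but not without tumor 5346, 5347, 5369 or 5393. Of 9 salivary gland markers, Pip and Aqp5 met them higher (mean level 6.74 to 8.44 against 6.47 to 6.64). Pip was 11.93, 7.20 and 7.57 in JamA- and 5.20, 7.39 and 5.34 in JamA+ tumors, so the groups overlapped and tumor 5333 stood far above the others. Without tumor 5333 Aqp5 alone met the criteria and the median of the salivary list went from 0.55 to 0.15. Without tumor 5369 neither Pip nor Aqp5 did, and Prol1 was the 1 salivary marker that did. Of all these markers of other cells, Acta2 was the 1 that met the criteria in the tests that do not share the spread across probe sets. Aqp5, a water channel that these tumors express at 10.97 to 12.40, was 11.33, 12.20 and 12.40 in JamA- and 10.97, 11.25 and 11.26 in JamA+ tumors. No marker is listed at 0, since RMA values have no zero. Without tumor 5333, the tumor with the high salivary values, Tfap2b and Prom1 differed by 1.58 and 1.25 and Esr1 by 0.41, and 6 of the 9 genes met the criteria higher, with Foxa1, Gata3 and Cited1 added, as did 10.1% of all genes. Without tumor 5346, which had the high keratinocyte values, 1 of the 9 did, Tfap2b, and 4.05% of all genes. The part of other cell types in these differences was not tested beyond these values.

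**Figure D4:**
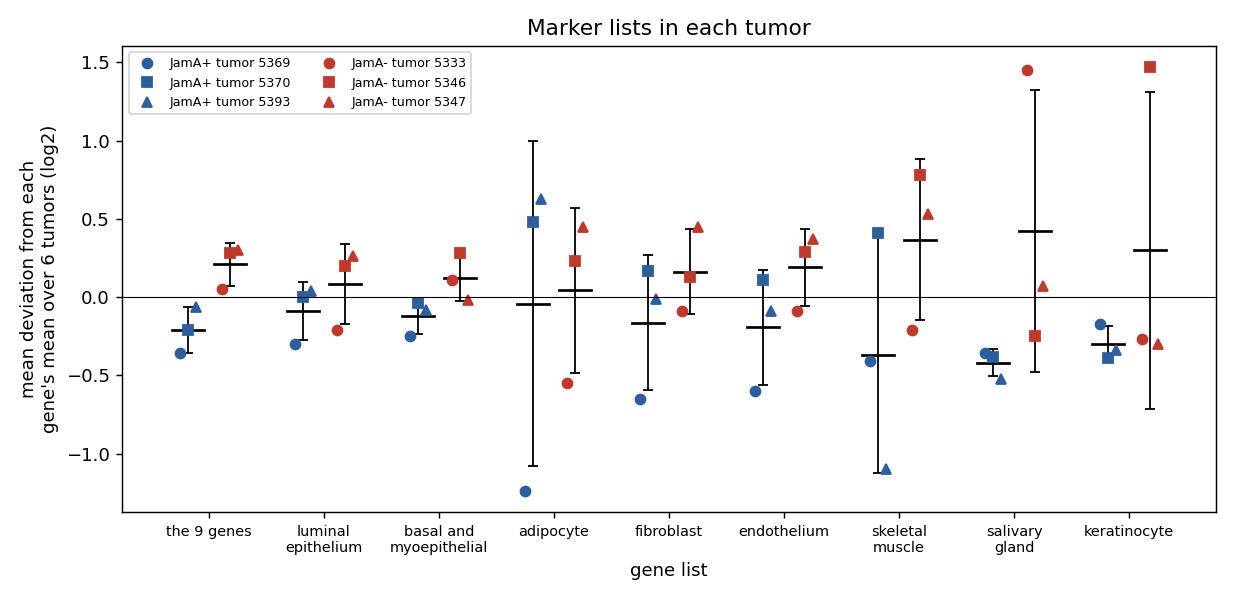
Vertical axis, mean log2 deviation of each tumor from the 6-tumor mean of every gene, for the 9 genes and for 8 lists of cell type markers (horizontal axis), with 1 symbol per tumor, ticks at group means and bars of 1 SD. The mean over the 9 genes ranges from 0.05 to 0.30 in JamA- (red) and from -0.36 to -0.06 in JamA+ tumors (blue). This mean includes Tfap2b and Prom1, which have the largest differences (1.45 and 1.09). For Pgr, Foxa1, Gata3, Elf5, Greb1 and Cited1 taken singly, the groups overlap. Tumor 5369 is lowest for luminal, basal, adipocyte, fibroblast and endothelium markers, and tumors 5333 and 5346 stand out in salivary gland and keratinocyte markers.

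**Figure D5:**
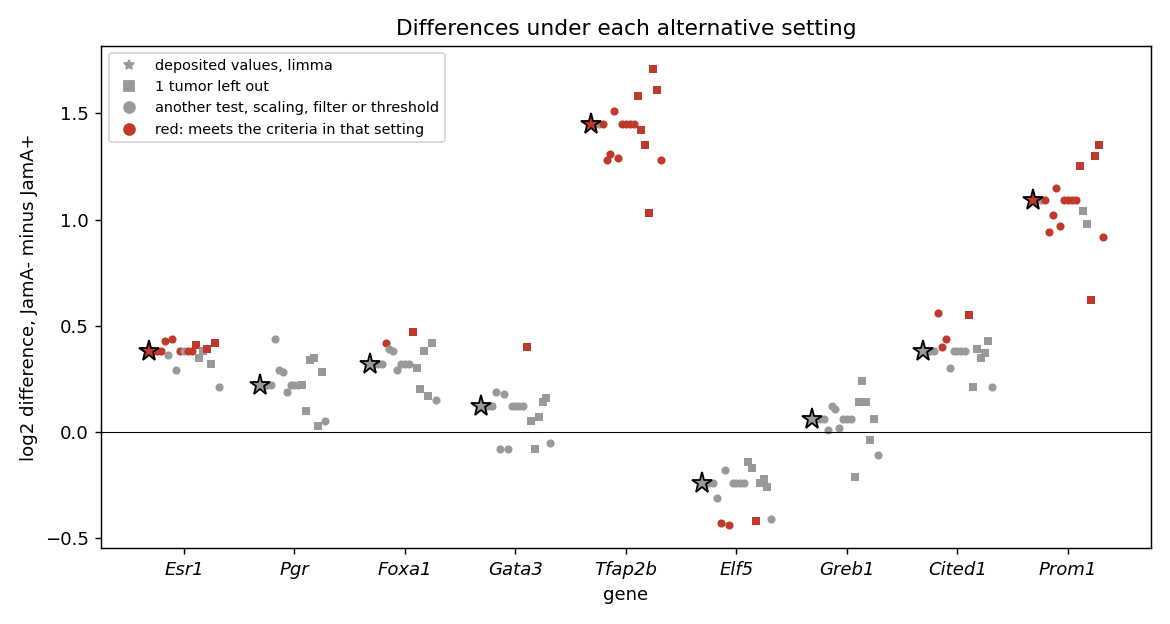
Log2 difference, JamA- minus JamA+ (vertical axis), of the 9 genes (horizontal axis) in the deposited values (stars), with 1 tumor left out (squares) and under another test, scaling, filter or threshold (circles). Red marks settings in which the gene met the criteria; Tfap2b keeps a difference of at least 1.03 throughout, Prom1 one of at least 0.62 and Elf5 stays below 0, while Gata3 and Greb1 cross 0.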

How the data were processed

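Tumors were grouped by the title of each label. The deposited log2 values were made by the authors by RMA (per the submitters' processing notes, Expression Console 1.1) from 1 Affymetrix Mouse Gene 1.0 ST array per tumor, so their scale carries no information on total RNA. The settings of that step are not given. Array medians were 6.27, 6.25 and 6.23 in JamA- and 6.30, 6.34 and 6.28 in JamA+ tumors, so every JamA- median lay below every JamA+ median. Interquartile ranges ran from 3.27 (tumor 5369) to 3.74 (tumor 5347), so the arrays do not share 1 distribution. With 3 arrays per group the precision is limited.

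Differences were computed with limma 3.58.1 in R 4.3.3 (empirical Bayes, no covariate, Benjamini-Hochberg adjustment over 35557 probe sets) and tested on simulated data. An exact permutation test of 3 against 3 tumors cannot give a p below 0.1. The paper states no array test or threshold for its gene signature. The fold and p thresholds used here are those that the entries of its signature table meet, so its own rule may differ. Of the probe sets, 21789 have 1 gene symbol, updated through RefSeq identifiers for 21698. Promoter sequences are those of RefSeq, build GRCm38.p6, matched by symbol for all 10 genes. The genes and lists were chosen with earlier results of these data known. Named are the 10 genes, F11r, fixed relatives, list genes that met the criteria, otherwise the 2 of a pathway list with the smallest p, and the 3 closest profiles of each gene that met them. Also named, after their values were seen, are Tnfsf11, Wnt4, Nrip1, Stat5a, Stat5b, Ghr, Erbb4 and a few markers that did not meet the criteria. Alternatives were other tests, scalings, filters, fold thresholds and leaving out each tumor.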

Additional observations from a re-analysis of the deposited data

How the results depend on the processing

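Of the 9 measured genes, 3 met the criteria, as did 5.33% of all genes. This number was 1 with the Welch test (1.96% of all genes), 5 with array weights (7.59%) and 1 to 6 with 1 tumor left out, the lowest without tumor 5346 (4.54%) and the highest without tumor 5333 (10.8%). The median difference of 0.32 was 0.43 with array weights, 0.15 relative to the luminal epithelium markers and 0.17 (without tumor 5370) to 0.42 with 1 tumor left out. Gata3 turned from 0.12 to -0.08 with quantile normalization between arrays and with that over the listed probe sets, to -0.05 relative to the luminal markers, and it ran from -0.08 (without tumor 5347) to 0.40 (without tumor 5333) with 1 tumor left out. Greb1 turned from 0.06 to -0.11 relative to the luminal markers, to -0.21 without tumor 5333 and to -0.04 without tumor 5370, and was at most 0.24 with 1 tumor left out (without tumor 5347). Other changes of call for single genes were 10 gained and 12 lost over 159 values, with 130 unchanged, and their cause was not tested. Foxa1, Pgr and Greb1 are among the 40% dimmest probe sets and have no value under that filter. Of all genes, 1062 met the criteria, 88.9% of them higher. This number was 555 with equal variances, 391 with the Welch test, 269 at a fold of at least 1.5, 1626 with no fold threshold, 2160 without tumor 5333 and 619 without tumor 5369. It was 744 (76.6% higher) with quantile normalization between arrays, 1686 (96.1% higher) with centring on array medians, 662 (54.2% higher) when only listed probe sets were quantile normalized and 459 (37.9% higher) relative to the luminal markers. The paper used JAM-A+/+ littermates as controls, but no paired analysis was possible because no source assigns single arrays to litters.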
